A study of Arabidopsis thaliana with 12 samples.

Results

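DFR (AT5G42800) and UF3GT (AT5G54060) are 2 genes of anthocyanin synthesis in Arabidopsis thaliana. They were chosen with earlier results of these data known, so the tests of them below are not independent. In the array's annotation table each is linked to 1 probe set of its own. Thus 2 of the 17481 probe sets with a named gene, and of 38408 in all, are described here. Both genes lie on chromosome 5. The values come from 12 Affymetrix Arabidopsis Gene 1.0 ST arrays, each called a library here, in 4 groups of 3, made up of the root and the shoot of each of 2 genotypes. The wild type was the accession Wassilewskija-4, and the other line is labelled aladin after ALADIN (AT3G56900), a gene of the nuclear pore complex. Roots and shoots were cut apart from seedlings aged 10 days, grown after 3 days of stratification on upright agar plates whose medium contained sucrose; no group had a further treatment. The labels call the replicates biological, but they give neither the allele, the number of lines or plants behind a sample, nor whether replicates came from separate plates or days. The p values therefore measure the spread between these libraries.

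Anthocyanins are the red to purple flavonoid pigments that seedlings store in the vacuoles of their shoots, and sucrose in the medium is known to promote their formation. Early enzymes of the pathway make flavanones and dihydroflavonols, which flavonols and anthocyanins share. DFR, dihydroflavonol 4-reductase, also known as TT3, reduces dihydroflavonols with NADPH and so opens the branch to anthocyanins and to the proanthocyanidins of the seed coat. UF3GT is listed in RefSeq as a flavonoid 3-O-glucosyltransferase and as UGT79B1. In Arabidopsis this enzyme adds xylose to anthocyanins that already carry a glucose, a late step that decorates the pigment. Both genes are classed as late genes of the pathway, which complexes of MYB, bHLH and WD40 proteins switch on together.

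The libraries of an organ were alike. The upper quartile of the signal, in log2 units after RMA (a background correction, normalization and summary of probes), was 7.93 to 8.04 per library, and Pearson's r across all probe sets was 0.990 to 0.993 within root groups and 0.983 to 0.987 within shoot groups. ALADIN itself was higher in the libraries labelled aladin than in wild type, at 12.69 ± 0.09 against 8.39 ± 0.03 in root and 12.39 ± 0.03 against 7.74 ± 0.05 in shoot (SD, n = 3). The probes thus show no loss of transcript; where they lie relative to the allele is not known here, and "aladin" means throughout the libraries that carry this label. The organ labels were checked with marker genes: all 7 measured markers of green tissue and of the stomatal lineage were lower in root than in shoot in both genotypes, and both measured root hair markers were higher in root. Table values carry no detection call, so whether a low signal exceeded background is unknown. The lower quartile of all probe sets was 3.91 to 3.97 in the root libraries, under every root value of DFR and UF3GT.

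DFR signal was high in shoot and low in root in these seedlings. In wild-type shoot its log2 signal was 9.74, 9.84 and 8.87 in replicates 1, 2 and 3, and in aladin shoot it was 9.06, 6.67 and 8.10. In wild-type root it was 4.69, 4.80 and 4.95, and in aladin root 4.98, 4.67 and 4.80. All 6 shoot libraries lay above all 6 root libraries, the lowest shoot library by 1.69 log2 units over the highest root library. Shoot libraries varied far more than root libraries: they spanned 3.17 log2 units, or 8.99-fold, against 0.31 in root. The 2 shoot groups overlapped, because aladin shoot replicate 1 lay above wild-type shoot replicate 3.

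UF3GT had the same order of group means with smaller differences. Its log2 signal in wild-type shoot was 5.87, 6.32 and 5.78, and in aladin shoot 5.76, 4.51 and 5.31. In wild-type root it was 4.37, 4.68 and 4.82, and in aladin root 4.45, 4.69 and 4.91. The shoot range of UF3GT was 1.81 log2 units and its root range 0.53. Unlike DFR, UF3GT had 1 shoot library inside its root range, aladin shoot replicate 2; the other 5 shoot libraries lay at least 0.40 above the highest root library. The wild-type and aladin shoot groups did not overlap, but the gap between them was only 0.02.

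**Figure D1:**
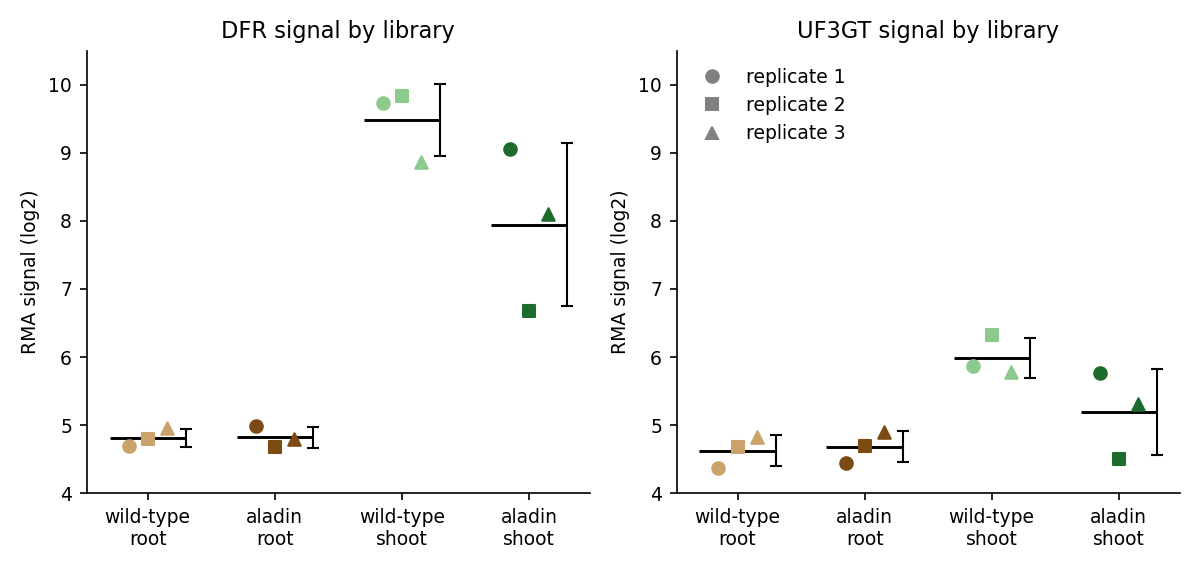
Log2 RMA signal of DFR (left) and UF3GT (right) in each library of the 4 groups. Symbols mark the replicate, horizontal bars the group mean and error bars the SD (n = 3). Root values of both genes sit between 4.37 and 4.98, wild-type shoot values are the highest on average, and aladin shoot values are spread most widely, with replicate 2 lowest. Levels of different probe sets are not comparable with each other.

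The organ comparison asked how far the signal of each gene differed between shoot and root. In wild type, DFR was lower in root by 4.67 log2 units (log2 difference -4.67, SE 0.45, 95% interval -5.66 to -3.68), a 25.4-fold difference with a limma adjusted p = 2.24e-06. UF3GT was lower in root by 2.57-fold (log2 difference -1.36, SE 0.27, interval -1.95 to -0.78, limma adjusted p = 0.000837). Both directions held in each of the 3 libraries of either organ. Every shoot library of wild type lay above every root library for both genes. Organ differences were common on these arrays: in wild type 58.8% of all tested genes passed, 31.9% as higher and 26.9% as lower in root, and the groups did not overlap for 64.3%, for 29.9% with root below shoot.

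In aladin the organ difference was nearer to 0 for both genes; the test of that change is the difference between the organs' genotype effects, given with the shoot values. DFR was lower in root by 8.74-fold (log2 difference -3.13, SE 0.45, interval -4.12 to -2.13, limma adjusted p = 7.55e-05), and its groups did not overlap. Here 62.1% of all genes passed, 33.2% as higher and 28.8% as lower in root, and the groups of 67.5% did not overlap, 32.0% with root below shoot. For UF3GT the difference of -0.51 (SE 0.27, interval -1.09 to 0.08) did not pass (limma adjusted p = 0.117), and the 2 groups overlapped. That outcome rested on aladin shoot replicate 2: without it the UF3GT difference was -0.85 (limma adjusted p = 0.0047, range over all alternatives 0.0047 to 0.449).

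Beside DFR and UF3GT, 11 of the 20 other listed enzymes of flavonoid synthesis had a probe set of their own. In wild type 6 of the 11 were lower in root, 2 were higher and 3 did not pass, where 26.9% of all genes passed as lower and 31.9% as higher. Their median log2 difference was -0.61 against -0.03 over all tested genes. The lower ones included UGT73C6, a flavonol glucosyltransferase (-2.87, SE 0.14, limma adjusted p = 4.78e-09), AT5MAT, which adds malonate to anthocyanins (-1.42, SE 0.18, limma adjusted p = 2.92e-05), and UGT78D1, a flavonol rhamnosyltransferase (-1.03, SE 0.17, limma adjusted p = 0.000185). AT4G14090, AT1G03940 and AT1G03495, which were listed with the anthocyanin enzymes and carry no symbol in the reference, were also lower in root, by -1.77, -0.61 and -0.62, the last call ending without wild-type shoot replicate 2 (adjusted p = 0.0766). UGT78D2, which glucosylates flavonols and anthocyanidins, was higher in root (0.46, SE 0.07, limma adjusted p = 0.000133), as was AT1G06000 of the flavonol list (0.79). CHIL, a chalcone isomerase-like protein of the early pathway (-0.11), BAN, the anthocyanidin reductase of the seed coat (-0.05), and UGT78D3, a flavonol arabinosyltransferase (-0.23), did not pass. UGT78D3 passed at -0.29 without wild-type shoot replicate 1 (limma adjusted p = 0.046). In aladin, 5 of the 11 were lower in root, 1 was higher and 5 did not pass, where 28.8% of all genes passed as lower and 33.2% as higher. Of those that did not pass, BAN was called lower on leaving out any 1 of 3 libraries (limma adjusted p 0.0338 to 0.0467). CHIL was called lower without wild-type shoot replicate 3 (0.0289), and AT1G03495 without aladin shoot replicate 2 (0.0241). The difference of DFR was larger in size than that of any of these 11 in wild type, and in aladin DFR and UGT73C6 both stood at -3.13.

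**Figure D2:**
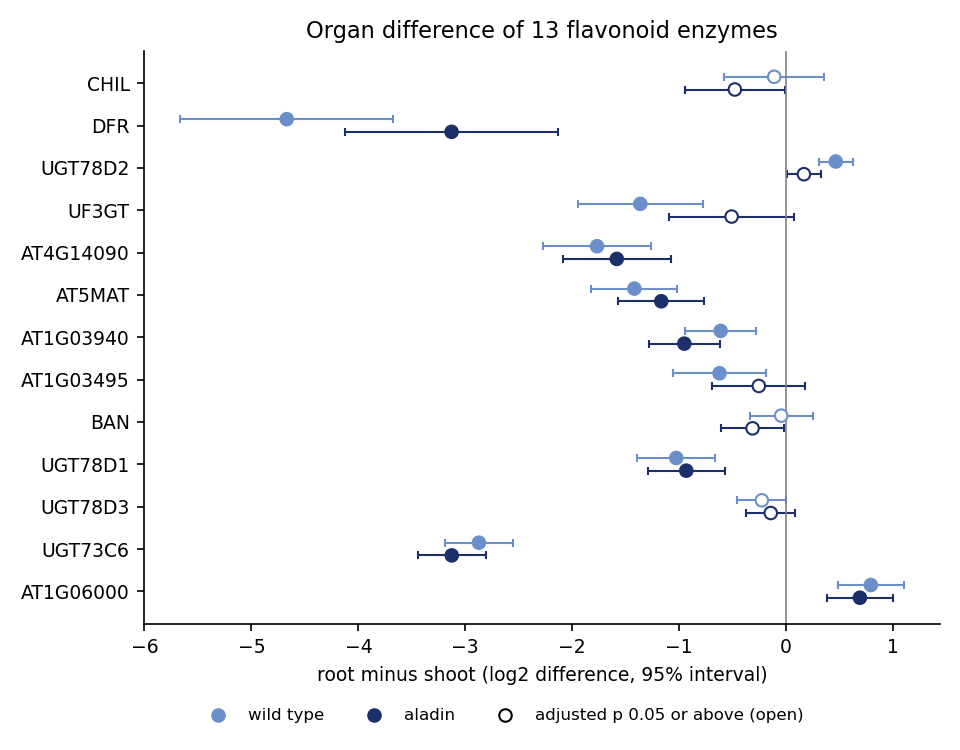
Root minus shoot log2 difference of the 13 measured flavonoid enzymes in wild type (light) and aladin (dark), with limma's 95% intervals from 3 libraries per group. Filled points passed an adjusted p of 0.05. DFR lies farthest to the left in wild type at -4.67, and UF3GT at -1.36 lies near AT5MAT and AT4G14090.

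The genotype comparison asked whether the aladin line differed from wild type within an organ. In root neither gene differed beyond the spread between libraries. Mean DFR signal was 4.81 ± 0.13 in wild-type root and 4.82 ± 0.16 in aladin root (SD, n = 3), a log2 difference of 0.0062 (SE 0.45, limma adjusted p = 0.998). Mean UF3GT signal was 4.63 ± 0.23 and 4.68 ± 0.23 (SD, n = 3), a difference of 0.06 (SE 0.27, limma adjusted p = 0.948). The 95% intervals, -0.99 to 1.00 for DFR and -0.53 to 0.64 for UF3GT, leave room for changes of up to 2.00-fold and 1.56-fold upward. They rest on 1 spread shared by all 12 libraries. For DFR the pooled SD within groups was 0.14 in root and 0.93 in shoot, so its root interval is wider than root libraries alone would give. In the same comparison 7.64% of all tested genes passed and the groups of 31.7% did not overlap, 18.3% with aladin below wild type, whereas those of DFR and UF3GT overlapped. The 4 green tissue markers summed to 9.59 to 10.08 in aladin root and 9.29 to 9.37 in wild-type root (log2 of the summed signal), a sum carried by the brightest, RCA. RCA, which activates Rubisco, rose by 0.61 (SE 0.10, limma adjusted p = 0.0031). LHCB4.2 went the other way at -0.53 (0.0916), PORB was at 0.56 (0.279) and LHCB4.1 at 0.13 (0.584), none of which passed, and their part in the root values was not tested.

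In shoot both genes had lower means in the libraries labelled aladin, and neither passed the test. Mean DFR signal was 9.48 ± 0.53 in wild-type shoot and 7.95 ± 1.20 in aladin shoot (SD, n = 3), a log2 difference of -1.54 (SE 0.45, interval -2.53 to -0.54) that corresponds to 2.90-fold. Its limma p was 0.0057 before and 0.103 after adjustment over all tested genes. Mean UF3GT signal was 5.99 ± 0.29 and 5.19 ± 0.63 (SD, n = 3), a difference of -0.80 (SE 0.27, interval -1.38 to -0.21), or 1.74-fold, with a limma p of 0.0117 before and 0.147 after adjustment. In this comparison 2.96% of all genes passed, 1.49% as higher and 1.47% as lower, and the groups of 19.0% did not overlap, 11.0% with aladin below wild type as UF3GT. An exact two-sided permutation test of the 3 against 3 libraries gave p = 0.20 for DFR and 0.10 for UF3GT, where 0.10 is the smallest p this design allows.

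The size of the shoot difference depended on single libraries of the aladin shoot group. Without aladin shoot replicate 1, the highest of the 3, the DFR difference grew to -2.09 and passed (limma adjusted p = 0.0203), and that of UF3GT was -1.08 (limma adjusted p = 0.0569). Without replicate 2, the lowest, the differences were -0.90 for DFR (limma adjusted p = 0.162) and -0.46 for UF3GT (limma adjusted p = 0.303). Over all alternatives the shoot adjusted p ran from 0.0203 to 0.342 for DFR and from 0.0569 to 0.365 for UF3GT, and the direction was lower in aladin in every one. The spread itself differed between organs. The pooled SD within groups was 0.93 in shoot and 0.14 in root for DFR, a ratio of 6.42 where the median over all genes was 1.37, and 0.49 and 0.23 for UF3GT. The SE of 0.45 for DFR comes from 1 spread shared by all 12 libraries and is the same in both organs; a fit on the compared libraries alone gave 0.56 in shoot (adjusted p = 0.342) and 0.11 in root (adjusted p = 0.981).

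The genotype effect in root minus that in shoot was 1.54 for DFR (SE 0.64, interval 0.14 to 2.95) and 0.85 for UF3GT (SE 0.38, interval 0.03 to 1.68). Neither passed over all genes (limma adjusted p = 0.30 and 0.337), with unadjusted p values of 0.0342 and 0.0440, where 2.15% of all genes passed, 1.43% with a positive and 0.715% with a negative value. Transcript levels in whole organs do not separate fewer pigment-forming cells from less RNA per cell.

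Among the 13 measured flavonoid enzymes, DFR and UF3GT included, 0 passed by limma in root and 0 in shoot, with 2 and 4 at an unadjusted p under 0.05. With 7.64% and 2.96% of all tested genes passing, a count of 0 among 13 is near the background and is no result about these enzymes. In shoot 9 of the 13 had a lower mean in aladin, with a median of -0.21 against -0.02 over all tested genes, of which 54.4% were lower. Values for the later anthocyanin steps were -0.45 for AT4G14090 (limma adjusted p = 0.338), -0.30 for AT5MAT (0.432), -0.31 for AT1G03495 (0.462) and -0.04 for AT1G03940 (0.926). UGT78D2 (0.18) and UGT73C6 (0.37) had higher means in aladin shoot, with limma adjusted p values of 0.209 and 0.208. In root the lowest value was that of CHIL, at -0.71 (SE 0.22, limma adjusted p = 0.0713), which passed when wild-type shoot replicate 3 was left out (0.0265). Only 1 of 18 listed activators was measured, HYH, a bZIP relative of HY5 in light signalling, at -0.16 in root and 0.18 in shoot (limma adjusted p = 0.627 and 0.559). None of the 9 listed repressors, 4 genes of flavonoid transport and oxidation and 9 genes of the general phenylpropanoid pathway had a named probe set of their own, so they were not analysed here.

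**Figure D3:**
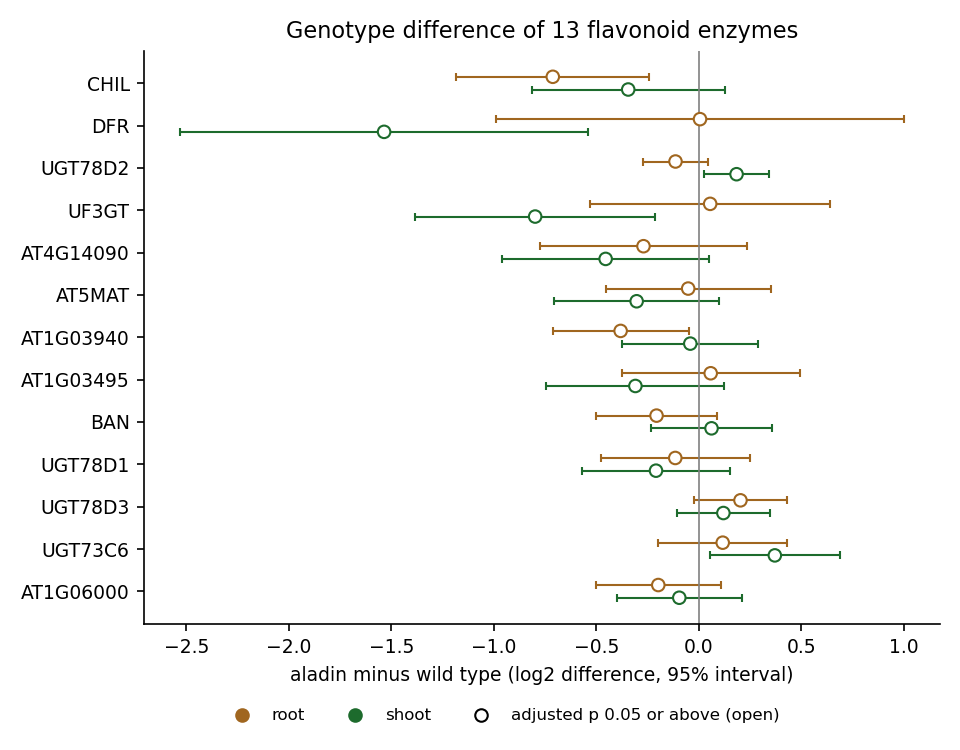
Aladin minus wild-type log2 difference of the 13 measured flavonoid enzymes in root (brown) and shoot (green), with limma's 95% intervals from 3 libraries per group. All points are open because no adjusted p fell below 0.05. The shoot values of DFR (-1.54) and UF3GT (-0.80) lie farthest to the left.

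DFR and UF3GT varied together across the shoot libraries. Over the 6 shoot libraries Pearson's r was 0.975 (exact permutation p = 0.0028, adjusted p = 0.0056 over the 2 relations computed) and Spearman's rho 0.943 (exact permutation p = 0.0167, adjusted p = 0.0333). Without the 2 libraries farthest from the DFR median, aladin shoot replicate 2 and wild-type shoot replicate 2, r was 0.917 over 4 libraries. The permutations ignored genotype, so the shoot p values also reflect the lower aladin means that both genes share. The pair was chosen with earlier results known, so these p values are a description. With each group's mean taken off, r was 0.949, for which no p value was computed. Of 16721 other genes, 11, or 0.0658%, UF3GT among them, had an r to DFR over these libraries at least as high. In the 6 root libraries, where both genes varied little, r was 0.108 (exact permutation p = 0.826, adjusted p = 0.826) and rho 0.143 (exact permutation p = 0.803, adjusted p = 0.803); without aladin root replicate 1 and wild-type root replicate 3, r was 0.633 over 4 libraries. The labels name no batch within which to repeat these values.

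**Figure D4:**
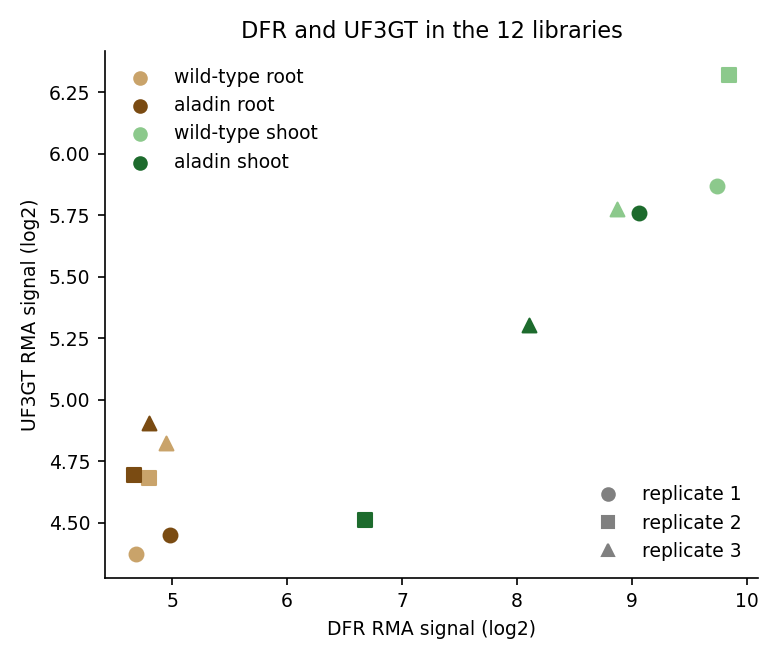
DFR against UF3GT log2 RMA signal in the 12 libraries, with colour for the group and symbol for the replicate. The 6 shoot libraries line up from aladin shoot replicate 2 (6.67 and 4.51) to wild-type shoot replicate 2 (9.84 and 6.32), and the root libraries form a compact group at low DFR signal.

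Aladin shoot replicate 2, chosen for its low DFR and UF3GT values, was the lowest of the 6 shoot libraries for 5 of the 11 other flavonoid enzymes and for 3 of the 6 others in the anthocyanin list. It was the lowest for 17.1% of all tested genes. Relative to the wild-type shoot mean, this library was at -2.81 for DFR, -1.48 for UF3GT, -1.04 for AT4G14090 and -0.79 for AT1G03495. Replicate 3 of aladin shoot was at -1.38, -0.68, -0.46 and -0.26 for the same genes. Replicate 1 was at -0.42 and -0.23 for DFR and UF3GT but at 0.13 and 0.12 for the other pair. UGT78D2 varied little, with 0.20, 0.15 and 0.20 in aladin shoot replicates 1, 2 and 3. The others of the anthocyanin list had another order. In the same replicates AT5MAT was at 0.04, -0.42 and -0.53, lowest in replicate 3. AT1G03940 was at 0.07, -0.32 and 0.12 and BAN at 0.03, -0.12 and 0.27, both highest in replicate 3.

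**Figure D5:**
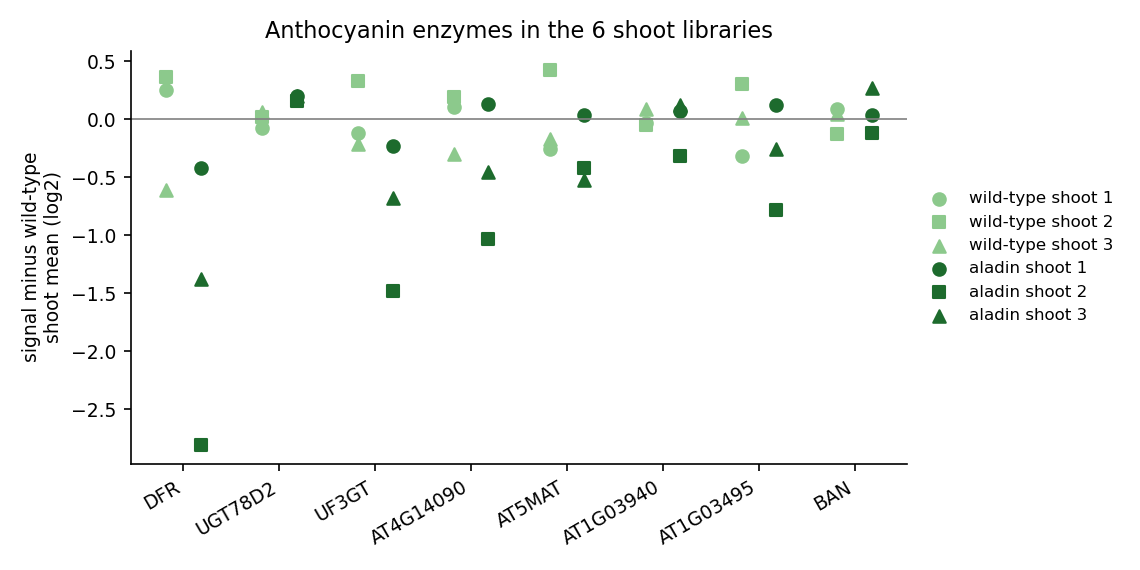
Log2 signal of 8 measured anthocyanin and proanthocyanidin enzymes in the 6 shoot libraries, relative to each gene's wild-type shoot mean (grey line at 0). Light symbols are wild type and dark symbols aladin. Aladin shoot replicate 2 (dark squares) is lowest for DFR at -2.81 and for UF3GT at -1.48, and lies close to the others for BAN and UGT78D2.

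Of the 3 measured markers of the stomatal lineage, 2 were lower in aladin shoot, where 1.47% of all genes passed as lower. Their part in the DFR and UF3GT values was not tested. SPCH, which starts the lineage, fell by 0.82 (SE 0.18, limma adjusted p = 0.0369) and MUTE fell by 0.93 (SE 0.22, limma adjusted p = 0.0437), while FAMA was at -0.10 (adjusted p = 0.793). The SPCH call ended on leaving out any 1 of 8 libraries, that is, all but wild-type root replicates 1 and 3 and aladin root replicates 1 and 2, and the MUTE call on leaving out any but aladin shoot replicate 3 (adjusted p up to 0.112 and 0.128). Neither passed in a fit on the 2 shoot groups alone (limma adjusted p = 0.0772 and 0.223). The summed signal of the 3 markers was 9.83 to 10.11 in wild-type shoot and 9.28 to 9.39 in aladin shoot, a sum in which SPCH was the brightest. In aladin shoot replicates 1, 2 and 3 the signal of SPCH was 8.58, 8.60 and 8.36, lowest in replicate 3. That of MUTE was 4.12, 4.03 and 4.96, lowest in replicate 2, as for DFR, but highest in replicate 3, whereas DFR was highest in replicate 1. The 4 green tissue markers summed to 13.30 to 13.39 in wild-type and 13.25 to 13.33 in aladin shoot, and 0 of the 4 passed there by limma, with 0 at an unadjusted p under 0.05. With 2.96% of all genes passing, a count of 0 among 4 is near the background and is no result about them.

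Likeness of pattern was measured as the root mean square difference of log2 values over the 12 libraries, after each gene was centred on its own mean, among 16721 genes. The genes nearest to DFR were AT3G44970 (0.57), AT1G11850 (0.58), AT3G61950 (0.61), AT1G24580 and AT4G36700 (0.62 each). All 5 had high shoot and low root signal, with wild-type means of 7.45 to 8.61 in shoot and 3.21 to 4.04 in root. Their shoot genotype differences, given as a description because nearness over the same libraries selected the genes, were -0.47 for AT3G44970, -0.93 for AT1G11850, -0.42 for AT3G61950, -0.31 for AT1G24580 and -0.82 for AT4G36700, against -1.54 for DFR. Nearest to UF3GT were AT1G36950 (0.25), AT4G24700, AT4G29310 and AT1G11520 (0.27 each) and NUB, a zinc-finger gene of the JAGGED type (0.29). Their shoot genotype differences, likewise a description, were -0.37, -0.64, -0.63, -0.79 and -0.41 in this order, against -0.80 for UF3GT. By this measure, which counts the size of a change, DFR and UF3GT were not near each other, at 1.54.

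The nearest measured genes on either side of DFR were LCR28, a small cysteine-rich peptide gene, and U2AF35B, a splicing factor subunit with 1 annotated gene in between. None of these, nor AT5G54050 and AT5G54062 beside UF3GT, passed in the genotype comparison of root or shoot. The shoot difference was -0.40 for LCR28 (limma adjusted p = 0.220), which passed at -0.63 when wild-type shoot replicate 3 was left out (0.0215). In shoot it was 0.20 for U2AF35B (0.462), 0.10 for AT5G54050 (0.741) and 0.21 for AT5G54062 (0.401). Between the wild-type organs, root minus shoot, none of the 4 passed, at -0.37, -0.06, -0.28 and 0.04 in the same order. LCR28 passed at -0.60 without wild-type shoot replicate 3 (limma adjusted p = 0.000868), and AT5G54050 passed at -0.28 without aladin shoot replicate 3 (0.0251). LCR28 and AT5G54062 were dim in every library, at most 3.32 and 2.91, under the cut of 3.78 in the filter on dim probe sets. In aladin, AT5G54050 was lower in root (-0.53, limma adjusted p = 0.0036), while the calls of U2AF35B (-0.33, 0.0381) and AT5G54062 (-0.30, 0.0449) ended on leaving out any 1 of 4 and of 6 libraries.

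The monolignol branch of phenylpropanoid metabolism, which shares precursors with flavonoids and leads to lignin, was measured by 8 of its 16 listed genes. This list was chosen with earlier results of these data known, so its counts beside those of all genes are a description. All 8 were higher in root than in shoot in wild type, as were 31.9% of all tested genes, among them CCR2, a cinnamoyl-CoA reductase (2.73), and the beta-glucosidase gene BGLU46 (3.19). The wild-type organ call of CCOAMT (0.89, limma adjusted p = 0.0494) ended on leaving out any 1 of 8 libraries (adjusted p up to 0.147). In root 4 of the 8 rose in aladin, CCOAMT, a methyltransferase gene (2.76), CCR2 (1.03), BGLU45 (1.06) and BGLU46 (1.07), and UGT72E1, a glucosyltransferase of monolignols, fell by 0.69, with limma adjusted p values from 0.000326 to 0.0075, where 4.63% of all genes passed as higher and 3.01% as lower. HCT (0.02), UGT72E2 (-0.40) and UGT72E3 (-0.46) did not pass. In shoot 1 of the 8 passed, where 1.49% of all genes passed as higher. BGLU46 rose by 0.79 (SE 0.13, limma adjusted p = 0.0100), a call that ended in a fit on the 2 shoot groups alone (0.105). CCR2 was at 0.41 in shoot (limma adjusted p = 0.176) and passed at 0.59 without aladin shoot replicate 2 (0.0275).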

How the data were processed

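The deposited table holds log2 signals of 12 arrays in 1 normalization; RMA is the tool named per the submitters' processing notes, and its software, chip description and summary level are not given in the sources here. RMA output is on the log2 scale, and the range of values fits it. The platform's annotation table linked 16722 probe sets to 1 gene and 759 to several, and 16574 of the former were found in RefSeq by locus. Coordinates are left out because the array's build is unknown. R 4.3.3 with limma 3.58.1 fitted 4 group means to all 12 libraries without a signal filter (8 residual and 3.67 prior degrees of freedom). P values were adjusted by Benjamini-Hochberg over 17481 probe sets at 0.05, and 95% intervals are unadjusted. The procedure was tested on simulated data in which each gene had 1 spread in all 4 groups. That test does not cover a gene such as DFR, whose spread differed between organs. Members and gene lists were chosen with earlier results of these data known. Named were the members, ALADIN, the measured flavonoid genes and markers, the monolignol genes that passed and 3 that did not, the 5 nearest patterns per member and the chromosome neighbours. Alternatives were a trend and robust prior, a filter on dim probe sets, all probe sets, quantile normalization, array weights, a replicate block, a fit on 2 groups and leaving out each library. Python 3.11 and matplotlib 3.10.9 drew the figures.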

Additional observations from a re-analysis of the deposited data

Results flagged for a closer look

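Among the genes named, the genotype effect differed between root and shoot, by limma's test of that difference over all genes, for 3, none of them DFR or UF3GT. CCOAMT had a root effect 2.21 log2 units above its shoot effect (SE 0.51, adjusted p = 0.0470), a call that ended on leaving out any library but aladin shoot replicate 3 (adjusted p 0.0565 to 0.115). BGLU45 had a difference of 1.23 (SE 0.19, adjusted p = 0.0054). The list that holds CCOAMT and BGLU45 was chosen with earlier results of these data known, so neither is an independent test. AT1G11850, which was selected for its nearness to DFR over the same libraries and so gives no independent test, had a difference of 0.89 (SE 0.14, adjusted p = 0.0059), with -0.04 in root and -0.93 in shoot. MUTE did not pass (adjusted p = 0.146), but passed at 1.28 without aladin shoot replicate 3 (0.0109). AT3G44970, likewise selected for its nearness to DFR, did not pass either. It passed at 1.45 without wild-type shoot replicate 3 (limma adjusted p = 0.0289).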

How the results depend on the processing

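Of 188 values of DFR and UF3GT under alternatives, 181 kept their direction and their side of the threshold. The root genotype differences turned sign 5 times. That of DFR was -0.0616 with array weights and ran from -0.0763 to 0.0796 over the libraries left out in turn; that of UF3GT ran from -0.071 to 0.173. Leaving out 1 library, the shoot difference ran from -2.09 to -0.90 (DFR) and -1.08 to -0.46 (UF3GT), the organ difference in wild type from -4.98 to -4.49 and -1.47 to -1.20, that in aladin from -3.76 to -2.57 and -0.85 to -0.23, and the difference between the organs' genotype effects from 0.91 to 2.10 and 0.51 to 1.14. The 2 values that newly passed, both without 1 library of aladin shoot, are the DFR shoot difference without replicate 1 (-2.09) and the UF3GT organ difference without replicate 2 (-0.85).

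Same-numbered libraries correlated at -0.06 to 0.10 in their deviations from group means, none over 0.1. Differently numbered libraries were not compared, so whether the numbers pair the samples is not known. The replicate block gave shoot adjusted p values of 0.113 (DFR) and 0.194 (UF3GT) and changed no call of either gene. Of the genotype calls of other named genes, it ended those of SPCH (0.0635), MUTE (0.0664) and AT4G24700 (0.0649) in shoot. It also ended the CCOAMT difference between organs (0.0578). Calls over all genes moved from 518 to 379 in shoot and from 1336 to 1237 in root. Organ calls of genes outside the flavonoid lists were not followed under the block.

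For other called genes, 62 of 622 values under alternatives no longer passed and 0 changed sign. Calls over all genes moved by over 1.5 times in shoot from 518 to 862 (trend and robust prior), 202 (array weights), 58 (the 2 groups alone), 282 without wild-type shoot replicate 2, and 305 and 293 without aladin shoot replicates 1 and 3. In root they moved from 1336 to 2700 (array weights), 2155 (all probe sets), 883 without wild-type root replicate 3 and 870 without aladin root replicate 2. For the difference between organs they moved from 375 to 594 (trend and robust prior) and to 211 to 235 without wild-type root replicate 1, 2 or 3 or aladin root replicate 2 or 3. With all probe sets 20311 passed between wild-type organs and 21321 between aladin organs, in place of 10279 and 10853, as more were tested. Array weights changed the root split from 809 higher and 527 lower to 1358 and 1342. The 2-group fit gives no difference between organs, and UGT78D1 was too dim for the filter on dim probe sets. Other causes were not tested. Whether low signals exceeded background cannot be read from this table.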
